A study of Mus musculus with 10 samples.

Results

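The subject here is the Cxcr3 chemokine axis, a set of 4 named genes: the ligands Cxcl9, Cxcl10 and Cxcl11 and their shared receptor Cxcr3. The gene list of the deposited matrices has 31053 genes and holds 3 of the 4 members. Cxcl11 has no row in it and was not analysed here. The annotation used here (GENCODE M21, GRCm38) places the 3 ligand genes side by side on the minus strand of chromosome 5, with Cxcl9 (ENSMUSG00000029417) at 92321347 to 92328079, Cxcl10 (ENSMUSG00000034855) at 92346638 to 92348889 and Cxcl11 (ENSMUSG00000060183) at 92359544 to 92365485. It lists Cxcl9 and Cxcl10 as protein coding and Cxcl11 as a polymorphic pseudogene. Cxcr3 (ENSMUSG00000050232) is on the minus strand of chromosome X at 101731535 to 101734269 and is protein coding.

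Single-cell RNA was counted in E0771 tumors, a mouse breast cancer cell line grown in the mammary gland of female C57BL/6 mice aged 16 weeks and taken at day 21. The EC-AGO1-KO group (KO) came from crossing AGO1 flox/flox mice with VE-Cadherin-Cre, a Cre driven by the endothelial Cdh5 promoter, so that the deletion lies in host endothelium and not in the injected tumor cells. The wild-type group (WT) was their littermates, whose alleles are not given further. There were 10 libraries, 5 per genotype: batch 1 had 1 WT and 1 KO library, and batch 2 had 4 of each. The 5 KO libraries held 7 tumors, since KO 2+3 and KO 5+6 each pooled 2 small tumors. Both batches used the same dissociation protocol, and they differ in sequencer.

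Cxcl9 and Cxcl10 are small secreted proteins that draw Cxcr3-bearing cells, mainly activated T cells and NK cells, into inflamed tissue. Cxcl9 is induced almost entirely by interferon gamma, while Cxcl10 also answers to type I interferon and NF-kB. In tumors both are usually made by myeloid cells and by stromal and endothelial cells. Cxcr3 signals through Gnai2-type G proteins and is switched on in T cells by the transcription factor Tbx21.

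The stretches upstream of the ligand genes that hold letters of known interferon and NF-kB elements are shown because the members' levels are read against interferon genes further on. The 250 bases before each start (RefSeq, GRCm38.p6) were searched on both strands for an ISRE (GAAANNGAAA), a GAS element (TTCNNNGAA) and an NF-kB site (GGGNNNNNCC). Of 32851 promoters of this length, 2.98% held the ISRE letters, 7.02% the GAS letters and 45.8% the NF-kB letters. Capitals mark the match in each 30-base window, which is written 5′ to 3′ on the gene's strand.

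Cxcl9, NF-kB letters, 130 to 120 bases before the start, chr5:92328190-92328219: tctgagagtaGGGTTTTCCCCaggacgatc

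Cxcl10, ISRE letters, 213 to 204 bases before the start, chr5:92349083-92349112: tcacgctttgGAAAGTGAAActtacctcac

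Cxcl10, NF-kB letters, 159 to 150 bases before the start, chr5:92349029-92349058: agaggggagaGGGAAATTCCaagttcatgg

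Cxcl10, NF-kB letters, 104 to 94 bases before the start, chr5:92348974-92349003: tcggtttacaGGGGACTTCCCtcgggttgc

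The ISRE letters were found upstream of Cxcl10 and not in the Cxcl9 window, and the GAS letters were in neither. In the last Cxcl10 window and in the Cxcl9 window, 2 overlapping matches share the capitals. A match of letters is a description and not a binding site.

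Libraries held 8323896 to 10591577 unique molecular identifiers (UMIs, counted molecules), of which 6064580 to 8593422 were in 65298 kept cells. Cells of batch 1 were deep, with a median of 4049 UMIs in WT and 3862 in KO, and those of batch 2 shallow, with medians of 595 to 1142. Levels are UMIs per 1000000 UMIs (CPM) of a library or class, with Actb left out, since it took 1.99% to 17% of the UMIs of a library. Cells fell into 10 classes named from marker genes, each written "-like", among them 55060 tumor-like, 1682 macrophage-like, 1320 T-like, 590 dendritic-like, 583 fibroblast-like, 366 monocyte-like, 273 pericyte-like and 209 endothelial-like cells. A further 4360 cells stayed unnamed, 3889 of them in 3 clusters for which another cluster of the best-matching class held over 2 times as many markers. Pairs of libraries shared at most 28 cell barcodes, and at most 0.503% of the smaller library. Ago1, the targeted gene, had 0 UMIs in the endothelial-like cells of either genotype, so the deletion could not be checked: the 66 WT cells of batch 2 allow up to 78.6 CPM and the 129 KO cells up to 53.2 CPM, at 3 UMIs per group.

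Cxcl9 was sparse in the tumors as a whole, with 559 UMIs in all kept cells, and every KO library lay above every WT library of its batch. In batch 1 the WT library had 19.1 CPM and the KO library 35.1 CPM. In batch 2 the WT libraries were at 1.29 CPM in WT 1, 2.39 CPM in WT 3, 1.96 CPM in WT 4 and 1.48 CPM in WT 5. The KO libraries were at 3.49 CPM in KO 1, 14.8 CPM in KO 2+3, 3.31 CPM in KO 4 and 5.21 CPM in KO 5+6. The groups did not overlap, and KO 2+3 stood far above the other KO libraries. The batch 2 mean was 1.78 ± 0.495 CPM in WT and 6.71 ± 5.47 CPM in KO (SD, n = 4 each), a ratio of 3.76, or 2.25 without KO 2+3.

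Over all 10 libraries with batch as a term, the log2 fold change of Cxcl9 (KO over WT) was 1.50 ± 0.39 (SE). By edgeR's quasi-likelihood test its unadjusted p was 0.00154, and the adjusted p (Benjamini-Hochberg, over 12450 genes) was 0.450. It did not pass the test. The same fit called 0 genes, a percent called of 0.00, with 1102 genes (8.85%) at an unadjusted p under 0.05, 5.61% of all genes on the KO side. Complete separation in both batches with KO higher was met by 292 genes, 2.35% of those tested. The exact two-sided permutation test within batches gave the smallest p that 10 libraries allow, 0.0143, and 0.171 after adjustment over 24 such tests (3 members, in whole tumors and 7 classes). Without a filter on low genes the edgeR adjusted p was 5.22e-07, and by DESeq2 it was 0.0574, so the side of the threshold rests on the filter. DESeq2 called 2 genes in all and the fit without a filter 242. Without KO 2+3 the log2 fold change was 1.00 and the adjusted p 0.715.

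**Figure D1:**
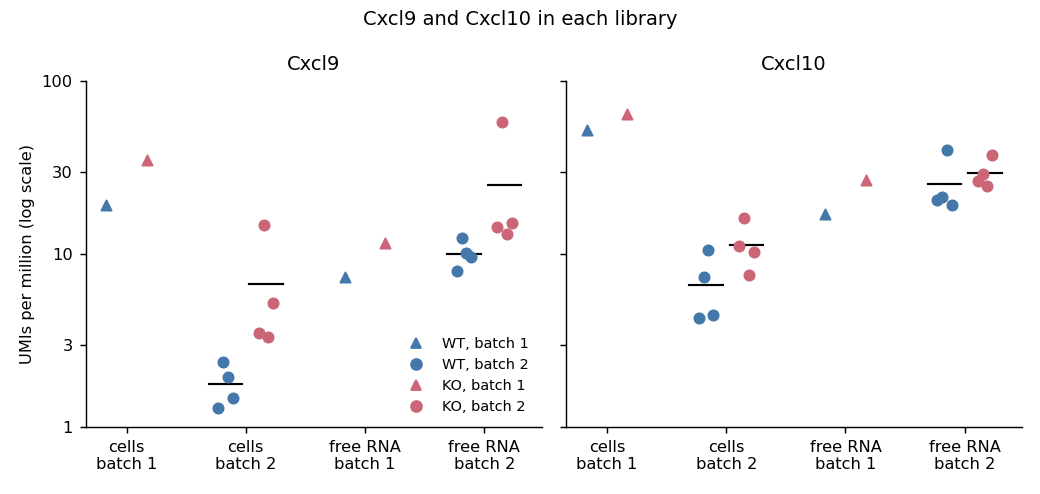
Cxcl9 (left) and Cxcl10 (right) in each library, as CPM on a log axis, in kept cells and in free RNA (barcodes of 1 to 50 UMIs); triangles are batch 1, circles batch 2, and bars mark means of 4 libraries. For Cxcl9 every KO library lies above every WT library of its batch in cells and in free RNA, with KO 2+3 at 14.8 and 58.1 CPM; for Cxcl10 the batch 2 groups overlap.

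Cxcl10 was the more abundant ligand, with 1210 UMIs in kept cells, and the genotypes overlapped. The batch 1 libraries had 52.1 CPM (WT) and 64.4 CPM (KO). In batch 2 the WT libraries held 4.30, 7.36, 10.5 and 4.45 CPM (WT 1, 3, 4 and 5), and the KO libraries 11.1, 16.1, 7.55 and 10.2 CPM (KO 1, 2+3, 4 and 5+6). WT 4 was above KO 4 and KO 5+6. The log2 fold change was 0.58 ± 0.25 (SE), with p = 0.0336 and an adjusted p of 0.539 by edgeR, and the permutation p was 0.0571, adjusted 0.457.

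The makeup of the cells also varied between libraries. Macrophage-like cells numbered 106, 335, 159 and 142 in the batch 2 KO libraries and 107, 111, 24 and 215 in the WT ones, in the order above. T-like cells numbered 98, 518, 158 and 140 in KO and 81, 102, 39 and 73 in WT. KO 2+3, the library highest in Cxcl9, thus had the most of both. WT 5, with 215 macrophage-like and 73 T-like cells, had 1.48 CPM of Cxcl9, and KO 1, with 106 and 98, had 3.49 CPM. How the numbers of cells run with the levels over libraries was not tested. In sums over whole tumors, more cells of a type and more RNA per cell cannot be told apart.

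Free RNA carried both ligands as well. Barcodes of 1 to 50 UMIs, too small to be cells, held Cxcl9 in batch 1 at 7.35 CPM (WT) and 11.6 CPM (KO). In batch 2 the WT libraries held 7.97, 12.3, 10.2 and 9.59 CPM, and the KO libraries 14.3, 58.1, 13 and 15.2 CPM. The separation was the same as in cells, in barcodes that the cell counts do not use, though from the same tumors and libraries. The log2 fold change was 1.07 ± 0.41 (SE), adjusted p = 0.106 by edgeR, and 0.37 without KO 2+3. The exact permutation p was 0.0143. It became 0.124 when adjusted together with the other single values (26 tests) and 0.0286 over the 2 free RNA tests alone, a pair of tests added after seeing the data. Here 640 of 13510 genes (4.74%) separated the genotypes in the same way, and 31.5% had an unadjusted p under 0.05, with 0 called (a percent called of 0.00). That count was not stable: without WT 3 the same edgeR fit called 6890 genes, and DESeq2 called 636 with all libraries. In 8 of 10 libraries, all of batch 2, the level of each ligand was higher in free RNA than in cells.

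Cxcl9 was highest per UMI in stromal cells and myeloid cells, not in tumor-like cells. Over the batch 2 libraries with at least 10 cells of a class, the mean was 142 ± 77.8 CPM in endothelial-like cells (SD, n = 7), 136 ± 168 CPM in fibroblast-like cells and 112 ± 101 CPM in pericyte-like cells (n = 8 each). Monocyte-like cells followed with 71.1 ± 129 CPM (n = 7) and macrophage-like cells with 65.2 ± 83.6 CPM (n = 8). Dendritic-like cells were at 32 ± 36.5 CPM, T-like at 4.87 ± 9.01 CPM and tumor-like at 1.13 ± 0.94 CPM, while the epithelial-like cells had 0 UMIs. In batch 1 the order differed, with means of 149 CPM in macrophage-like, 144 CPM in monocyte-like and 129 CPM in fibroblast-like cells (n = 2 each). No step between neighbours in the batch 2 order passed the exact sign-flip test over libraries. The adjusted p-values for Cxcl9 by this test were 0.281 to 1.00 (adjusted over the 27 neighbour pairs of the 3 members). Each step had 6 to 10 libraries, which leaves such a test little room after adjustment, so this does not show that neighbours were alike. A further 14 pairs, each class against tumor-like cells where these were not neighbours, were added after seeing the data. Macrophage-like cells were above tumor-like cells in 8 of 10 libraries (82.0 against 1.15 CPM, exact p = 0.00781), fibroblast-like cells in 7 of 10 (exact p = 0.0156) and endothelial-like cells in 6 of 7 (exact p = 0.0312). Adjusted over all 41 pairs these became 0.0534, 0.0915 and 0.107, which do not pass, and over the 14 added pairs alone 0.0219, 0.0365 and 0.0486 by the same exact tests. Of the 14 pairs, 0 passed over all 41 and 10 passed over the 14 alone, so whether the ligands differed from tumor-like cells rests on which tests are adjusted together.

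**Figure D2:**
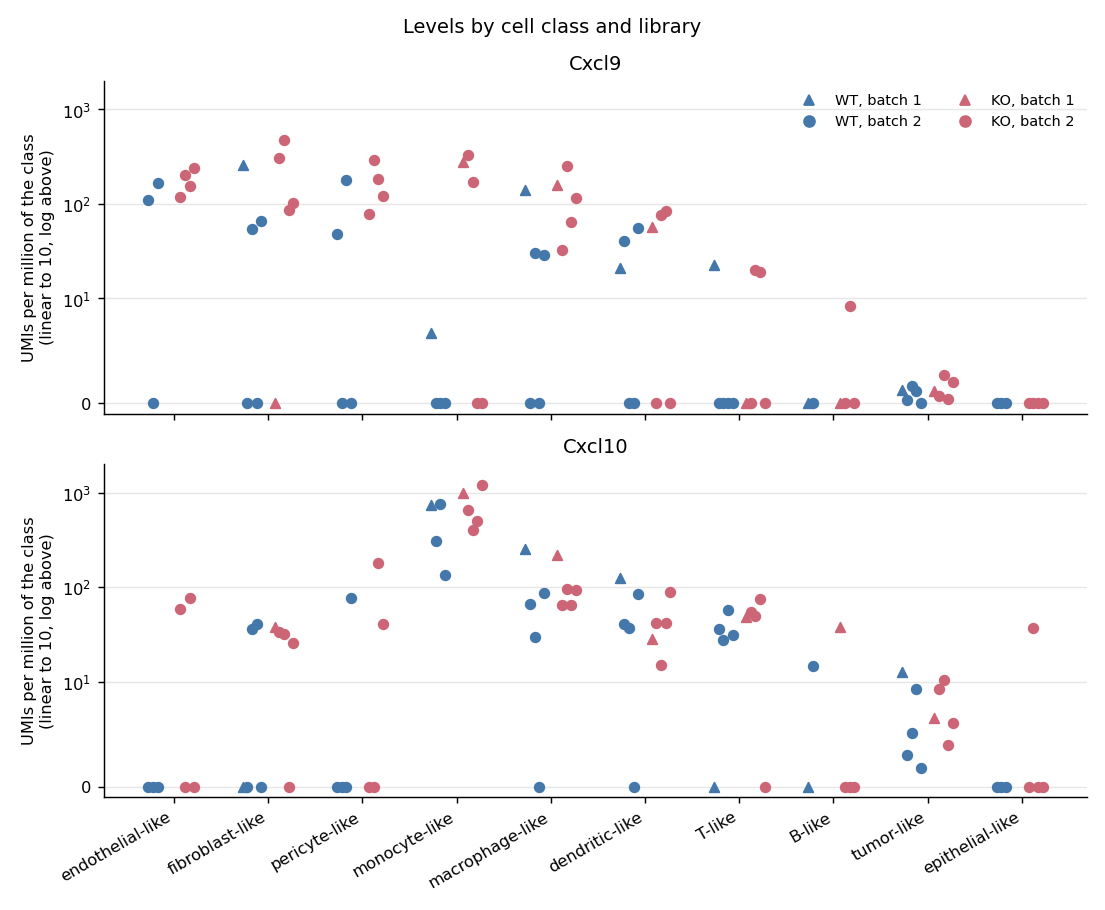
Level of Cxcl9 (top) and Cxcl10 (bottom) in each cell class, as CPM of the class on an axis linear to 10 and logarithmic above; each point is a library with at least 10 cells of the class. Cxcl9 spreads over stromal and myeloid classes with many libraries at 0, while Cxcl10 is highest in monocyte-like cells in the 9 libraries with at least 10 of them, and is 1.82 to 12.5 CPM in tumor-like cells.

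Endothelial-like cells are the cells in which VE-Cadherin-Cre is meant to delete Ago1, so they are given in full. Their UMI counts of Cxcl9 in batch 2 were 1 in WT 1, 0 in WT 3, 1 in WT 4 and 3 in WT 5, against 2, 2, 2 and 4 in the KO libraries. Among libraries with at least 10 such cells, the levels were 111, 0 and 168 CPM in WT and 118, 203, 153 and 242 CPM in KO, and the ranges overlapped. The means were 93.1 ± 85.5 CPM (n = 3) and 179 ± 54.9 CPM (n = 4), with p = 0.171 by the exact permutation test, in which 3 against 4 libraries cannot go below 0.0571. In batch 1 the 6 KO cells held 37 UMIs, 19 of them in 1 cell, and the 8 WT cells held 1 UMI. With so few molecules and libraries a difference could not have been detected.

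Macrophages engulf debris and present antigen, and interferon makes them a main source of Cxcl9. In macrophage-like cells Cxcl9 was nearly equal in the pair of batch 1, with 102 UMIs (141 CPM) in WT and 129 UMIs (157 CPM) in KO. In batch 2 the WT libraries had 0, 1, 0 and 2 UMIs and the KO libraries 1, 26, 3 and 5 UMIs. As levels these were 0, 30.0, 0 and 28.7 CPM in WT against 32.8, 250.3, 64.4 and 115 CPM in KO. The levels did not overlap, but the highest WT level (WT 3) and the lowest KO level (KO 1) each rest on 1 UMI. In UMIs, KO 1 with 1 lay below WT 5 with 2. How many other genes separate the genotypes in this class was not counted. In WT 4, 3 UMIs would already be 425 CPM, so its 0 sets no low limit. The difference of means was 84.1 CPM, with the smallest possible p of 0.0143 in the exact permutation test and 0.171 after adjustment. In batch 2 the ratio of means was 7.90, or 4.84 without KO 2+3. Cxcl9 did not pass the low-count filter of the fit across genes in this class.

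Fibroblast-like cells of batch 2 had Cxcl9 at 0, 53.9, 0 and 65.7 CPM in WT and 305.1, 478, 86.1 and 103 CPM in KO, while in batch 1 the WT library was at 259 CPM and the KO library at 0. The order of the genotypes thus turned between batches, and the permutation p was 0.257. Of the 22 UMIs in the WT library of batch 1, 14 were in 1 cell. Monocyte-like cells had 53 UMIs in KO and 1 in WT in batch 1, and only 4 UMIs in all of batch 2, all in KO libraries (exact permutation p = 0.214). Cxcl9 did not pass the low-count filter in this class. Without the filter the edgeR log2 fold change was 4.89 with an adjusted p of 0.0048, 1 of 3 genes called of 12402, and at Leiden resolution 2 it was 2.06 with an adjusted p of 0.440.

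Cxcl10 was highest per UMI in monocyte-like cells in every library that had at least 10 of them. Monocytes are recruited from the blood and carry Ly6c2 and Ccr2. These cells held 734 CPM (WT) and 985 CPM (KO) in batch 1. In batch 2 they were at 307, 757 and 135 CPM in WT 1, WT 3 and WT 5 and at 653, 400, 506 and 1212 CPM in the KO libraries. These rest on 1 to 10 UMIs per library, and WT 4, with 4 such cells, was left out. The 177 monocyte-like cells of batch 2 were a cluster split off a macrophage-like one. At Leiden resolution 2, only KO 2+3 (14 cells) and WT 5 (15 cells) of batch 2 had at least 10 monocyte-like cells. At resolution 1 the Cxcl10 level of monocyte-like cells was above that of macrophage-like cells in 9 of 9 libraries (632 against 108 CPM). The exact sign-flip p was 0.00391, the smallest that 9 libraries allow, and 0.105 after adjustment over the 27 neighbour pairs, so the step did not pass. The step from macrophage-like to dendritic-like cells had an exact p of 0.0195 and an adjusted p of 0.264, and the other Cxcl10 steps adjusted p-values of 1.00. In the added pairs, macrophage-like cells, at 97.0 CPM over 10 libraries, were above tumor-like cells (6.82 CPM) in 9 of 10, monocyte-like cells in 9 of 9, dendritic-like cells in 9 of 10 and T-like cells in 8 of 10. The adjusted p of each by the exact test was 0.0534 over all 41 pairs and 0.0219 over the added 14 alone. Free RNA of batch 2, at 19.2 to 40.1 CPM, was near the batch 2 means of dendritic-like (43.7 CPM) and T-like cells (41.7 CPM), and its part in them was not tested. The level was above the free RNA of the same library in 7 of 7 batch 2 libraries for monocyte-like, 7 of 8 for macrophage-like, 6 of 8 for dendritic-like and 7 of 8 for T-like cells.

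Between genotypes, Cxcl10 overlapped in each of these classes. In monocyte-like cells the difference of means was 268 CPM, with p = 0.243 by the exact permutation test, and in macrophage-like cells 20.8 CPM with p = 0.300. In endothelial-like cells of batch 2 it was seen as 2 single UMIs, both in KO libraries. In batch 1 they held 9 UMIs in KO, all in 1 cell, and 3 in WT.

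Within the deep batch, Cxcl10 was concentrated in cells with interferon genes. A monocyte-like cluster of 79 cells led by Ly6c2, Plac8, Slfn4, Ifit3 and Isg15 held it at 1812 CPM, and a macrophage-like cluster of 37 cells led by Ifit3, Rsad2, Oasl1 and Ccl12 at 1292 CPM. Together these 116 cells, 5.37% of the batch, had 405 of its 796 Cxcl10 UMIs (50.9%). The other monocyte-like cluster, of 110 cells led by Plac8, Clec4e and Il1b, held Cxcl10 at 161 CPM. The same interferon-led clusters had Cxcl9 at 349 and 305 CPM, below the 701 CPM of the endothelial-like cluster of that batch. The latter has only 14 cells, and its 6 KO cells held 37 of its 38 Cxcl9 UMIs, 19 of them in 1 cell. Members were kept out of the clustering genes, but genes induced with them were not.

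**Figure D3:**
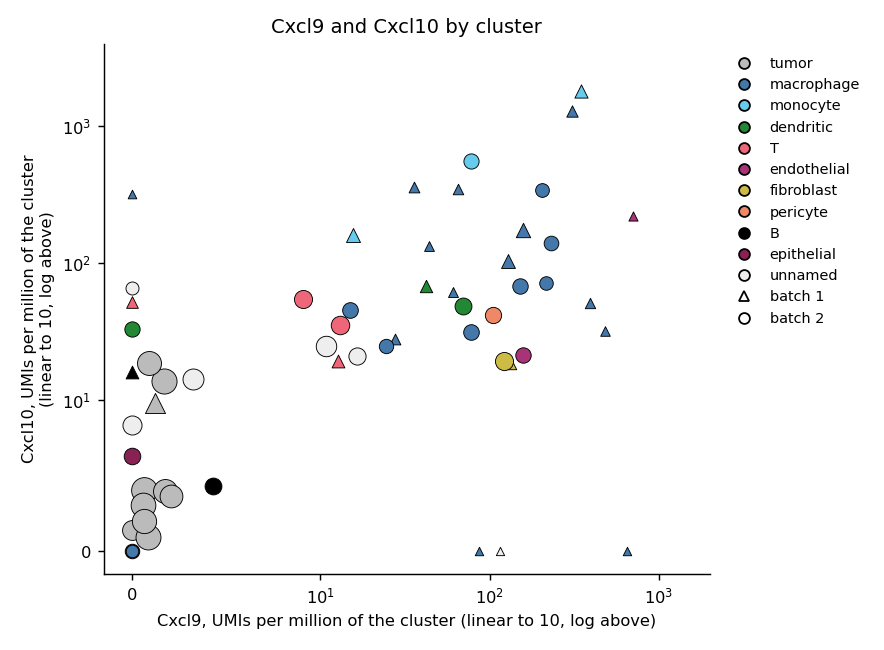
Cxcl9 (horizontal) against Cxcl10 (vertical) in each cluster, as CPM of the cluster on axes linear to 10 and logarithmic above; the colour is the class, triangles are batch 1, circles batch 2, and larger points hold more cells. Tumor-like clusters lie at the lower left. The endothelial-like, fibroblast-like and pericyte-like clusters lie at 104 to 701 CPM of Cxcl9, a range that also holds macrophage-like clusters. The interferon-led monocyte-like and macrophage-like clusters are at the top, at 1812 and 1292 CPM of Cxcl10.

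By share of a ligand's UMIs the order of classes differed from the order by level, and it differed between batches. Tumor-like cells came first by mean share for both ligands in batch 2, but not in batch 1. Tumor-like cells made up 84.7% of cells in batch 2 and held 58.8% ± 14.8 of the Cxcl10 UMIs (SD, n = 8), at 1.82 to 12.5 CPM per library over both batches. That level is under the 17.2 to 40.1 CPM of free RNA, whose part in the tumor-like UMIs was not tested. Monocyte-like cells held 6.74% ± 5.27 of the Cxcl10 UMIs while being 0.310% of the cells. In batch 1, with 55.2% tumor-like cells, macrophage-like cells held 48.1% (WT) and 42.6% (KO) of Cxcl10, and monocyte-like cells 29.3% and 44.3%. For Cxcl9 in batch 2, tumor-like cells held 27.2% ± 21.4 of the UMIs, fibroblast-like 18.9% ± 15.3, macrophage-like 12.1% ± 11.1 and endothelial-like 10.6% ± 8.19. The Cxcl9 level of tumor-like cells (mean 1.13 CPM) was above the free RNA of the same library in 0 of 8 batch 2 libraries. Free RNA there was at 7.97 to 58.1 CPM, and its part in these UMIs was not tested either. Unnamed cells held 13.8% ± 13.5 of the Cxcl9 and 15.9% ± 3.86 of the Cxcl10 UMIs of batch 2, being 6.96% of its cells. Endothelial-like cells were 0.324% of the batch 2 cells. In batch 1 macrophage-like cells held 73.9% (WT) and 56.3% (KO) of Cxcl9. No class share passed the test between genotypes (adjusted p = 1.00 for each by the exact permutation test within batches).

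**Figure D4:**
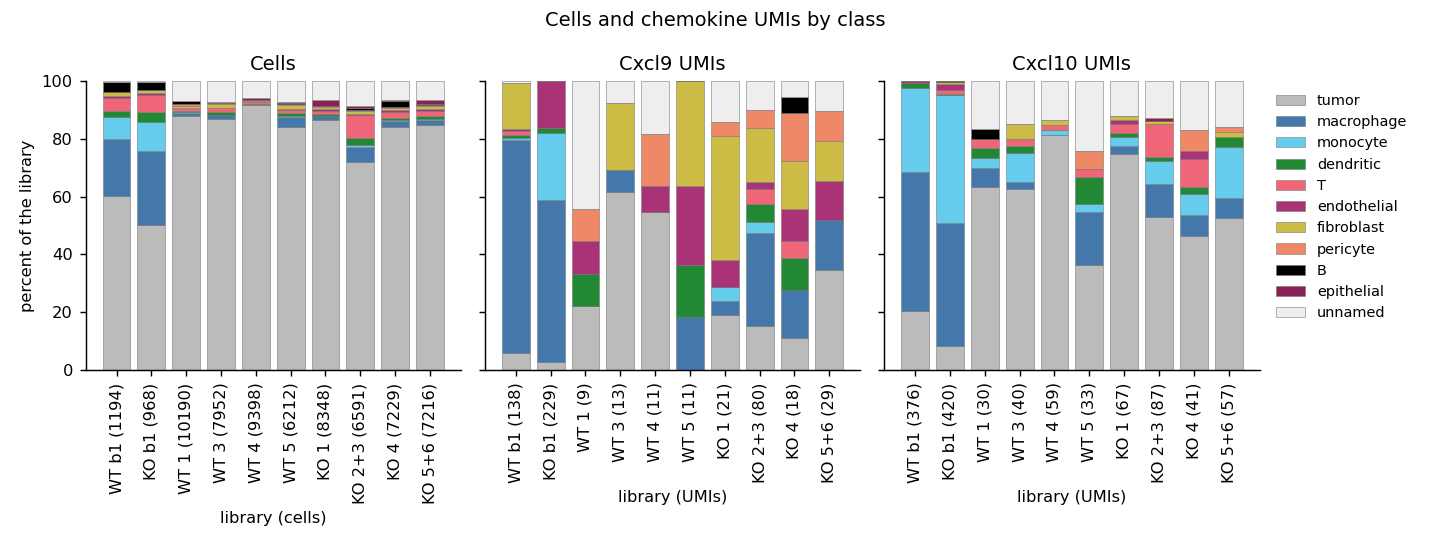
Percent of cells (left), Cxcl9 UMIs (middle) and Cxcl10 UMIs (right) by cell class in each library, with the number of cells or UMIs in brackets; b1 is batch 1. Macrophage-like cells hold most Cxcl9 in batch 1, and tumor-like cells hold 36.4% to 81.4% of Cxcl10 in batch 2.

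Free RNA also gives UMIs in droplets with cells, so each share of cells with a UMI is set beside the share expected if all UMIs of those cells were free RNA of their library. In batch 2, Cxcl10 was found in 21 of 177 monocyte-like cells (11.9%), 23 of 1199 macrophage-like cells (1.92%) and 214 of 53855 tumor-like cells (0.397%), at median depths of 351, 345 and 713 UMIs. The shares expected from free RNA alone were 0.793%, 0.795% and 2.09%. Dendritic-like cells (1.69% against 1.16%) and T-like cells (1.57% against 1.03%) were little above it, and fibroblast-like and endothelial-like cells below it. Among epithelial-like cells it was in 1 of 447 (0.224%) at 400 UMIs. Cxcl9 was found in 14 of 195 endothelial-like cells (7.18%), 28 of 558 fibroblast-like (5.02%), 13 of 273 pericyte-like (4.76%) and 32 of 1199 macrophage-like cells (2.67%), against 0 of 447 epithelial-like and 41 of 53855 tumor-like cells (0.0761%). For Cxcl9 free RNA alone would give 0.819% of endothelial-like, 0.905% of fibroblast-like, 0.899% of pericyte-like and 0.756% of macrophage-like cells. Tumor-like cells, at 0.0761%, were below their 1.27%, and T-like cells, at 0.331%, below their 1.20%. Thinned to 300 UMIs per cell, batch 1 and batch 2 came together for monocyte-like cells and Cxcl10 (13.8% and 12.5%). For macrophage-like cells and Cxcl9 they did so only with the genotypes pooled (2.90% and 2.71%). By genotype these shares were 3.40% (WT) and 2.43% (KO) in batch 1, and 0.287% (WT) and 4.19% (KO) in batch 2. The batches stayed apart for macrophage-like cells and Cxcl10 (6.64% and 1.84%). Thinning left out 277 macrophage-like and 33 monocyte-like cells of batch 2 as too shallow.

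Most cells with a UMI of Cxcl9 had none of Cxcl10. At these depths a missing UMI does not show that the RNA was absent, so this does not show separate source cells. In batch 1, 17 of 52 macrophage-like cells with Cxcl9 also had Cxcl10 (32.7%), against 19.0% of those without Cxcl9. Most of this gap was in the WT library, with 11 of 27 (40.7%) against 16.3%. In the KO library it was 6 of 25 (24.0%) against 21.5%. Among monocyte-like cells 5 of 13 with Cxcl9 had Cxcl10 (38.5%), against 28.4% without. Both of the endothelial-like cells with Cxcl10 in batch 1 and both in batch 2 also had Cxcl9. In batch 2, 3 of 32 macrophage-like cells with Cxcl9 also had Cxcl10 (9.38%), against 1.71% of those without Cxcl9. For monocyte-like cells of batch 2 it was 0 of 4, against 12.1%. A deeper cell shows more of both genes, and depth was not matched here.

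The receptor was at the limit of detection. Cxcr3 had 16 UMIs among 65298 cells, a level of 0.260 CPM: 6 in the KO and 7 in the WT library of batch 1, 2 in KO 2+3, 1 in KO 5+6 and 0 in the other batch 2 libraries. T-like cells held 9 of them at 13.5 CPM (exact Poisson 95% interval 6.20 to 25.7, counting error only), each in a different cell. The 7 of batch 1 were all in a cluster of 68 cells led by Ikzf2, a gene of regulatory T cells, and by Gzma, Gzmb and Nkg7, genes of killing by cytotoxic lymphocytes, and none in the other T-like cluster of 43 cells. That other cluster held 57626 UMIs (Actb left out) against 157333 in the first, so its 0 sets no low limit. At Leiden resolution 2, 6 of the 7 lay in a cluster of 42 cells led by Ikzf2, Icos, Tnfrsf4 and Ctla4, and 1 in a cluster of 25 cells led by Gzma and Gzmb. Outside T-like cells, tumor-like cells of batch 1 had 5 UMIs in 1189 cells of 1 cluster, at 0.445 CPM, and macrophage-like cells had 1. In T-like cells of batch 1 the counts were 5 UMIs in WT (55.9 CPM) and 2 in KO (15.9 CPM), and in batch 2 they were 0 of 295 WT cells, which allows up to 26.5 CPM, and 2 UMIs in 914 KO cells (5.95 CPM). The receptor was above tumor-like cells in the T-like cells of 3 of 10 libraries (exact sign-flip p = 0.250, adjusted 0.964). Neither genotype difference was detectable at this depth (exact permutation p = 1.00 within T-like cells).

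The genes around the axis were a list of 28: inducers, interferon receptors and their signalling, modifiers, and genes of Cxcr3-bearing lymphocytes. In the whole-tumor fit 21 were tested, 0 passed, and 17 had an estimate above 0, with a median log2 fold change of 0.17 against 0.00 for all genes. Those with an unadjusted p under 0.05 were 5, all higher in KO, where 5.61% of all genes tested met both. On the log2 scale, Tbx21, the factor that switches on Cxcr3, was at 1.55 ± 0.40 (SE), and Dpp4, the protease that clips the ligands, at 0.73 ± 0.23. Stat2, which carries the type I interferon signal to its target genes, was at 0.48 ± 0.16. Their adjusted p-values by edgeR were 0.450 to 0.462, so none is called.

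The sources of these genes were spread over the classes. Ifng, the inducer of Cxcl9, had 26 UMIs in all, of which T-like cells held 20 (76.9%). Of those, 17 were in the batch 2 T-like cluster that also held the 2 Cxcr3 UMIs of T-like cells of that batch. At Leiden resolution 2 those 2 Cxcr3 UMIs lay in different T-like clusters. Il12b, which drives Ifng in lymphocytes, had 93.3% of its UMIs in dendritic-like cells, at 158 CPM. Tbx21 was at 179 CPM in T-like cells, which held 53.1% of its UMIs. Pf4, a platelet chemokine related to the ligands, had 96.8% of its UMIs in macrophage-like cells. Within the class fits few of the list were tested, 4 in macrophage-like, 3 in T-like and 19 in tumor-like cells, and 0 passed; in tumor-like cells Stat2 (0.49 ± 0.17) and Dpp4 (0.71 ± 0.26) were among those that had an unadjusted p under 0.05, as did 5.42% of all genes of that fit (percent called at the adjusted threshold 0.00).

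Genes whose level ran most like that of a ligand were sought over 62 sums of a class in a library, among 11179 genes. For Cxcl10 they were Cd300ld (r = 0.81), Il1rn (0.81), Fcgr1 (0.81), Lrrc25 (0.81) and Il1b (0.81), all myeloid genes, and within batch 2 their r was 0.40 to 0.58. For Cxcl9 they were Pros1 (0.57), Pnp (0.57), the interferon gene Ifi205 (0.55), Ctnnbip1 (0.54) and Lpl (0.53), with 0.46 to 0.62 in batch 2. The sums share libraries, depth and batch, so these are descriptions. Cxcr3 had too few UMIs for such a list.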

How the data were processed

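The matrices the authors deposited hold unnormalized counts of UMIs for each gene in each barcode, empty droplets included, from Cell Ranger 7.1.0 and mm10 per the labels. Cells are barcodes of 200 to 7000 genes whose mitochondrial share is 10% or less. They were clustered (scanpy 1.11.5, leidenalg 0.10.2, Leiden resolution 1, 2000 variable genes) with the members, the axis list and Actb left out, and named from marker lists: at least 3 markers 2-fold up with 20 CPM added. The naming rule went through several versions once clusters had been seen, before genotypes were compared: fold against all other cells of the batch, no name where another cluster of the class had over 2 times as many markers or with 3 tumor markers beside another class, and a further split of macrophage clusters. No doublet caller was run. UMIs were summed per library and class (at least 10 cells) and tested with edgeR 4.0.16 (TMM, filterByExpr, batch term) in R 4.3.3, checked on simulated data. DESeq2 1.42.0, other filters, scalings, a replicate block and left-out libraries were alternatives. Single values used exact permutation within batches, and classes exact two-sided sign-flip tests between neighbours in the order of batch 2 means. Neighbour pairs and single values were adjusted over their own planned tests (Benjamini-Hochberg). The comparisons with tumor-like cells and in free RNA were added after seeing the data and were adjusted together with the planned tests, with the value over the added tests alone beside it. Named genes were the members, the axis list and, for members with at least 100 UMIs, the 5 genes of highest Pearson correlation of log2(CPM + 50). Members and lists were chosen with earlier results of these data known. Tumors are numbered separately, but the labels do not tie each number to a mouse, so p-values measure the spread between libraries. Shares expected from free RNA were added after seeing the data. Intervals and limits from 3 UMIs cover counting error only. Some genes of the axis list are counted but not reported by name here.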

Additional observations from a re-analysis of the deposited data

Results flagged for a closer look

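In batch 2, each ligand's level was compared within 31 groups of 4 libraries, and 3 values, of 2 libraries, lay far from the others of their group by Dixon's ratio, where chance flags about 1 in 20. The library KO 2+3 stood apart for Cxcl9 in cells, at 14.8 CPM against 3.31 to 5.21 CPM in the other KO libraries. It stood apart again for Cxcl9 in free RNA, at 58.1 CPM against 13 to 15.2 CPM. It pools 2 tumors and has the most T-like (518) and macrophage-like (335) cells of batch 2, and the part of these in its Cxcl9 level was not tested. WT 4 stood apart for Cxcl10 in free RNA, at 40.1 CPM against 19.2 to 21.5 CPM in the other WT libraries.

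Free RNA lies outside the comparisons of cells, and it held Cxcl9 at a mean of 22.4 CPM over the 5 KO libraries, against 9.50 CPM over the 5 WT libraries. The KO mean is raised by KO 2+3 at 58.1 CPM, with the other KO libraries at 11.6 to 15.2 CPM. Without KO 2+3 the batch 2 ratio of KO to WT means was 1.41. Each KO library lay above every WT library of its batch, as it did for 640 of 13510 genes (4.74%) in free RNA.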

How the results depend on the processing

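Whole-tumor Cxcl9 stayed higher in KO under every alternative of the edgeR fit that tested it, at a log2 fold change of 0.86 (without the 2 pooled KO libraries) to 1.85, but passed the threshold only without a filter (1.46). With at least 500 genes per cell it was not tested. Over all genes that fit called 0, DESeq2 called 2, the fit without a filter 242 and the fit without KO 4 called 1. Same-numbered libraries of batch 2 deviated together in 2 of 4 pairs (r = 0.19 and 0.19, against -0.22 and -0.25). So few pairs cannot show whether such libraries share more than a number. With the replicate block Cxcl9 was at 1.37 and Cxcl10 at 0.59, and neither was called.

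Between classes, 0 of 27 planned pairs passed in any setting. The 14 added pairs against tumor-like cells passed in 10 cases only when adjusted alone, which fell to 5 at Leiden resolution 2 and 0 with at least 500 genes, where fewer libraries were left. In batch 1 alone, macrophage-like minus dendritic-like cells were at 158 CPM and macrophage-like minus tumor-like cells at 225 CPM of Cxcl10, and of Cxcr3 T-like minus tumor-like cells were at 35.5 CPM and macrophage-like minus monocyte-like cells at 0.61 CPM. Cxcl9 in monocyte-like cells, not tested with the filter, passed without it (4.89). In free RNA, Cxcl9 passed the edgeR threshold without a filter (0.97) and without WT 3 (1.12). Over all genes in free RNA 0 were called, against 636 by DESeq2, 1521 without a filter, 775 in batch 2 alone and 6890 without WT 3, and scaling to the library total alone moved the median log2 fold change of all genes from 0.03 to 0.18.

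Signs turned only in differences that were not called. Without the pooled libraries Cxcl9 in tumor-like cells was -0.12 CPM (KO minus WT). In batch 2 alone Cxcl10 in dendritic-like cells was 6.61 CPM, Cxcr3 in T-like cells 2.49 CPM and Cxcl10 in free RNA -0.016 (log2). At resolution 2 Cxcl9 was 31.7 CPM for monocyte-like minus macrophage-like and -0.21 CPM for B-like minus tumor-like. With at least 500 genes Cxcl9 was 87.4 CPM (endothelial-like minus fibroblast-like) and -6.01 CPM (fibroblast-like minus pericyte-like), and Cxcl10 was -1.01, -2.17 and -5.27 CPM (endothelial-like, pericyte-like and B-like minus tumor-like) and -8.60 CPM (tumor-like minus epithelial-like). Leaving out 1 library at a time, KO minus WT ran from -4.49 to 15.2 CPM for Cxcl10 in whole tumors, -0.24 to 2.45 in tumor-like, -6.91 to 61.8 in macrophage-like and -28.4 to 2.90 in dendritic-like cells, and for Cxcr3 from -0.056 to 0.294 in whole tumors, -0.066 to 0.116 in tumor-like cells and -8.80 to 5.18 in T-like cells. The log2 fold change of Cxcl10 ran from -0.013 to 0.62 in tumor-like cells and from -0.00079 to 0.43 in free RNA. Where a batch 1 library is left out, its partner stays in 1 group alone, which moves that mean. Each library of batch 2 holds 0 to 26 UMIs of a ligand per named class outside tumor-like cells, which limits every class comparison. Other causes were not tested.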
